A study of Mus musculus with 4 samples.

Results

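Messenger RNAs of the mouse Fc receptors for IgG and of the complement system were measured in bone marrow macrophages by 2-colour microarray. The set holds 10 genes, chosen by gene symbol: the IgG receptors Fcgr1, Fcgr2b, Fcgr3 and Fcgr4, their common signalling chain Fcer1g, the complement components C3, Cfb and Cfp, and the anaphylatoxin receptors C3ar1 and C5ar1. They were read by 11 probes of the 39429 on the array, which stand for 32395 genes or unnamed transcripts, and all 10 genes were among the 23571 that passed the filter on dim probes. C3 had 2 probes and each other gene had 1.

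Each of the 4 arrays set Cdk5r1 knockout RNA, labelled with Cy5, against wildtype RNA, labelled with Cy3. The targeted gene, Cdk5r1, codes for the p35 protein that switches on the kinase Cdk5. The groups were knockout macrophages given LPS, wildtype macrophages given LPS, basal knockout macrophages and basal wildtype macrophages, with 2 samples in each. For both genotypes the labels give male mice at 6 weeks and 1 strain name, B6.129S4-Cdk5r1tm1Lht/J, and all cells grew out of marrow over 7 days in medium with GM-CSF at 25 ng/ml. Stimulated cells received LPS from Escherichia coli, a bacterial cell wall lipid, at 100 ng/ml for 6 h. Arrays of a condition are labelled as biological replicates but no animals are named, so the p-values measure the spread between these samples. The dyes were never swapped, so in every ratio of knockout over wildtype a dye effect of the probe cannot be told apart from the genotype, whereas LPS and basal cells of 1 genotype carry the same dye.

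Fc receptors bind the constant part of antibodies, and on macrophages they start phagocytosis of antibody-coated particles. The receptors encoded by Fcgr1, Fcgr3 and Fcgr4 signal through the tyrosine motif of the Fcer1g chain and the kinase Syk, whereas the receptor encoded by Fcgr2b carries an inhibitory motif and recruits the phosphatase SHIP. Complement is a cascade of plasma proteins that meets at C3: its fragment C3b coats particles, factor B (Cfb) joins C3b in the convertase of the alternative pathway, and properdin (Cfp) stabilises that convertase. The small fragments C3a and C5a act on the receptors encoded by C3ar1 and C5ar1. Macrophages make several of these proteins themselves and change their Fc receptors when they meet bacterial products.

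The sequences upstream of 3 genes whose signal rose with LPS and 2 whose signal fell are shown because Fcgr2b, Fcgr4 and Fcgr3 are consecutive protein-coding genes on chromosome 1 that changed in opposite directions. Each is the 250 bases before the RefSeq transcription start in GRCm38.p6, 5′ to 3′ on the strand of the gene, for C3 (chr17:57228137-57228386, minus strand), Fcgr4 (chr1:171018676-171018925, plus strand), C5ar1 (chr7:16259339-16259588, minus strand), Fcgr2b (chr1:170976072-170976321, minus strand) and Fcgr3 (chr1:171059404-171059653, minus strand). Capitals mark letters that match any of 5 motifs searched on both strands.
C3: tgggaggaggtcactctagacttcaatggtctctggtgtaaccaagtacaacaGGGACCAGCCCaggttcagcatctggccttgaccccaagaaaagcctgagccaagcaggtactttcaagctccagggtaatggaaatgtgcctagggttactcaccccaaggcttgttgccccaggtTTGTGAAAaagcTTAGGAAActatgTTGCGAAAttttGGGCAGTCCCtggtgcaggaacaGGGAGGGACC
Fcgr4: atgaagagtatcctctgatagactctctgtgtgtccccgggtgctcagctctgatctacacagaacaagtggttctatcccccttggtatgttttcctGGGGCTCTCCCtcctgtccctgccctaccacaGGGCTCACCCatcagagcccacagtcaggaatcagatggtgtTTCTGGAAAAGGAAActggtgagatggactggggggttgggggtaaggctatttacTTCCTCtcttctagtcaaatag
C5ar1: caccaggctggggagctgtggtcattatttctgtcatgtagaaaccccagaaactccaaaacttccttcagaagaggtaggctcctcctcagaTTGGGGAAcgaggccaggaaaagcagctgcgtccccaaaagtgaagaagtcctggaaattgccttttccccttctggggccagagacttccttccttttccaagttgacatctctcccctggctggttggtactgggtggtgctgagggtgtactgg
Fcgr2b: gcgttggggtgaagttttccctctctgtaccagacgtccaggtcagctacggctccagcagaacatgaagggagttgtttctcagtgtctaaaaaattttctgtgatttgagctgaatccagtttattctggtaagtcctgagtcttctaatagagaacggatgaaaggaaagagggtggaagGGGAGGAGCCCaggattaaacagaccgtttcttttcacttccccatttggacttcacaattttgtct
Fcgr3: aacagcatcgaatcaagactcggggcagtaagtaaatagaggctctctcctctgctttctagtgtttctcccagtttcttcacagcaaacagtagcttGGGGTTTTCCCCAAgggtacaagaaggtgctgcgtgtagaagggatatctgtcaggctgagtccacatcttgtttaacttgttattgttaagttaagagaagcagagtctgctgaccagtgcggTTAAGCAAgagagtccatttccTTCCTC

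The motifs were GAAA and GAAA with any 2 bases between for interferon response factors, found in 3.0% of 32851 RefSeq promoters of this length, TTCNNNGAA for STAT factors, found in 7.0%, GGG and CC with any 5 bases between for NF-kappaB, found in 45.8%, TTNNGNAA for C/EBP, found in 36.8%, and GAGGAA for PU.1, found in 23.3%. C3 held 4 NF-kappaB matches, of which 2 overlap, and 3 C/EBP matches, and C5ar1 held 1 C/EBP match. Fcgr4 held 3 NF-kappaB matches, of which 2 overlap, 1 PU.1 match, and an interferon response match that overlaps its 1 C/EBP match. Fcgr2b held 2 overlapping NF-kappaB matches, and Fcgr3 held 3 overlapping NF-kappaB, 2 C/EBP and 1 PU.1 match. The NF-kappaB letters are loose and common, and a match describes the letters only. A promoter entry was matched by symbol for 9 of the 10 genes, all but Cfb.

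Median raw signals of the arrays were 116 to 145.5 in the knockout channel and 76 to 97.5 in the wildtype channel, no spot was saturated, and 62.07 to 64.98% of spots in the knockout channel and 68.3 to 71.04% in the wildtype channel were well above background. Each probe of the 10 genes exceeded background clearly in both channels on all 4 arrays. The targeted gene was checked first. Under LPS, Cdk5r1 had normalised intensities of 450 and 799 in knockout and 2632 and 3896 in wildtype cells, with log2 ratios of -2.55 and -2.29. In basal cells it had 592 and 590 in knockout and 764 and 887 in wildtype cells, with log2 ratios of -0.37 and -0.59. Cdk5r1 was lower in knockout cells in both conditions (log2 -2.42 ± 0.094 under LPS, limma adjusted p = 6.8e-05, and -0.48 ± 0.094 basal, limma adjusted p = 0.040). It stayed above background in knockout cells, and the part of the gene that the probes read against the deleted part was not analysed here. Of 10 macrophage markers 9 had a probe, and all 9 were above background on every array in both genotypes. So were 6 of 6 eosinophil and 9 of 10 dendritic cell markers with a probe. The same held for 7 of 8 mast cell and basophil and 11 of 13 neutrophil markers. Detection of these markers thus does not tell macrophages from the other cell types. The 6 genes of a response-to-LPS list, among them Il6, Tnf and Nos2, all rose in both genotypes, with a median log2 change of 8.11 in knockout and 8.32 in wildtype cells.

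Intensities of different probes are not comparable with each other, so each gene is compared only with itself. Summed intensities of markers, given below, are weighted towards the brightest probes, so counts of markers in each direction stand beside them.

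**Figure D1:**
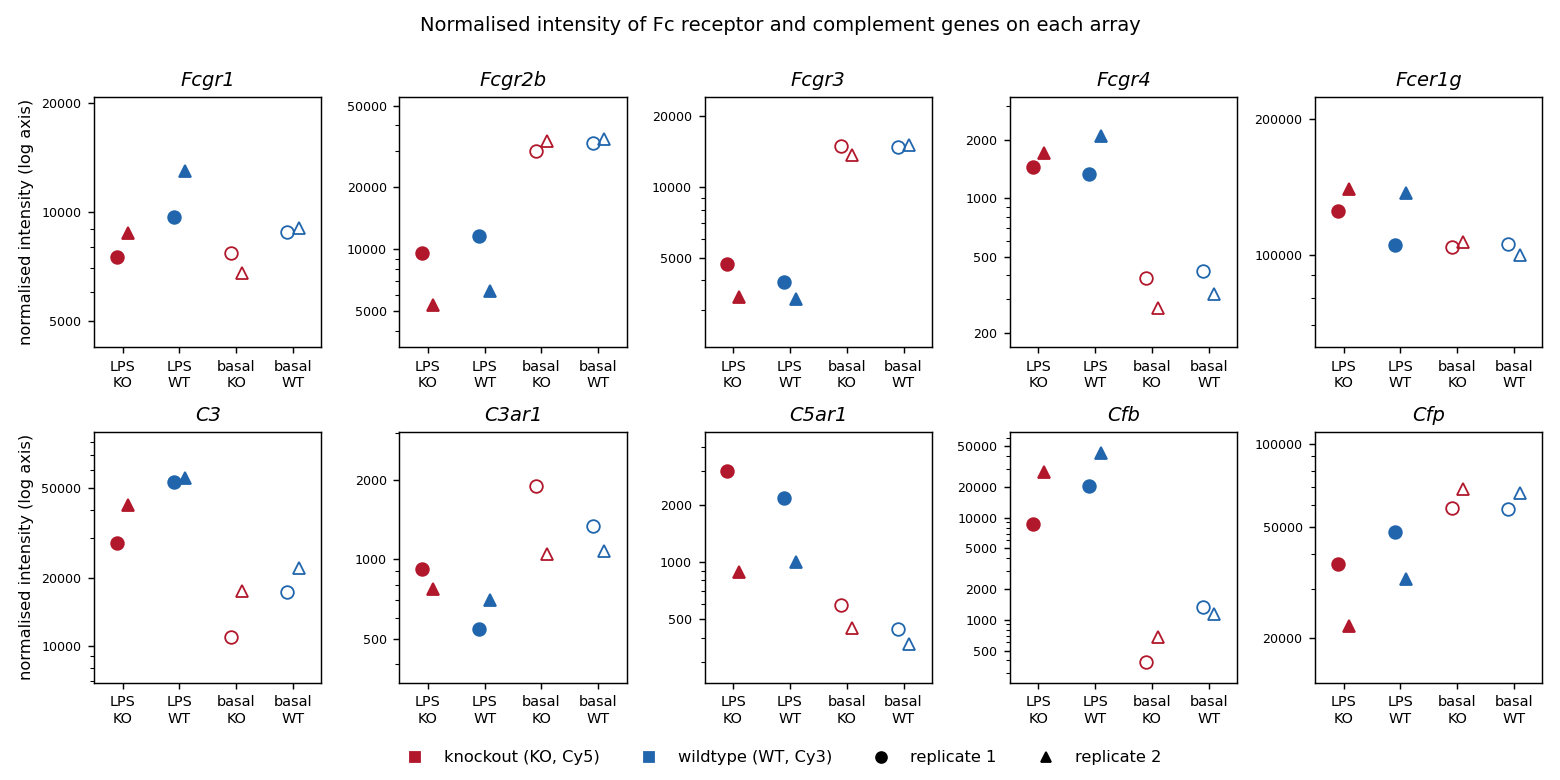
Normalised intensity (log axis, a separate range in each panel) of the 10 genes on each array. Columns are LPS knockout, LPS wildtype, basal knockout and basal wildtype cells; circles are replicate 1 and triangles replicate 2. Cfb, C3, C5ar1 and Fcgr4 lie higher in LPS than in basal cells and Fcgr2b, Fcgr3, C3ar1 and Cfp lower, in both genotypes, with no overlap between the conditions. The share of all genes without overlap was not counted, so this describes the values of these genes only.

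The first question was which of the 10 genes changed after 6 h of LPS in each genotype. In wildtype cells 4 rose (Fcgr4, C3, C5ar1, Cfb), 3 fell (Fcgr2b, Fcgr3, C3ar1) and 3 did not pass the test. In knockout cells 3 rose (Fcgr4, C3, Cfb), 3 fell (Fcgr2b, Fcgr3, Cfp) and 4 did not pass. The test was limma on log2 normalised intensity within a channel, adjusted by Benjamini-Hochberg over 23571 genes, two-sided at 0.05, with 2 arrays per condition. Of all genes tested, 40.9% passed in knockout cells (19.0% higher, 21.9% lower) and 40.9% in wildtype cells (18.2% higher, 22.7% lower), so a call was common in this comparison. The median log2 change of the 10 genes was 0.25 in knockout and 0.28 in wildtype cells, beside medians of -0.01 and -0.0005 over all genes. These counts depend on the scaling. When arrays were scaled to their 75th percentile instead of quantiles, the all-gene median moved by 0.35 in knockout and 0.37 in wildtype cells, all-gene calls became 10668 higher and 4216 lower in knockout cells and 11502 higher and 4264 lower in wildtype cells, against 4476 and 5157 in knockout and 4284 and 5347 in wildtype cells before. Of the 10 genes, 5 were then higher and 2 lower in knockout cells, and 6 higher and 3 lower in wildtype cells. These are bulk samples, in which fewer cells of a type and less RNA per cell cannot be told apart. Beside these changes, the summed intensity of the 9 macrophage markers was 93459 to 130300 in LPS knockout cells and 231810 to 268110 in basal knockout cells, and 124890 to 144270 in LPS wildtype and 241900 to 243620 in basal wildtype cells. Of these 9 markers 3 rose (Mertk, Cd14 and Marco) and 5 fell in each genotype. Neutrophil markers also moved with LPS, with 6 of 13 higher and 1 lower in knockout and 8 higher and 1 lower in wildtype cells, and so did eosinophil markers, with 2 of 6 higher and 1 lower in knockout and 4 higher and 0 lower in wildtype cells. Of 9 dendritic cell markers 4 rose and 2 fell in knockout and 3 rose and 2 fell in wildtype cells, and of 7 mast cell and basophil markers 3 rose and 0 fell in knockout and 4 rose and 1 fell in wildtype cells. The part of these shifts in the gene changes was not tested.

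Cfb, which encodes factor B, the serine protease of the alternative pathway convertase, changed most of the 10 genes. Its normalised intensity was 8736 and 28280 in LPS knockout cells, against 387 and 674 in basal knockout cells. In wildtype cells it was 20611 and 43172 with LPS, against 1334 and 1150 without. All 4 LPS values lay above all 4 basal values, although the LPS arrays of 1 genotype differed between themselves by more than the basal ones did on the linear scale. Cfb rose 30.8-fold in knockout cells (log2 4.94 ± 0.63 SE, limma adjusted p = 0.0059) and 24.1-fold in wildtype cells (log2 4.59 ± 0.37, limma adjusted p = 0.0015).

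C3, the central component, was read by 2 probes. The probe used for the gene gave 28715 and 42030 in LPS knockout cells, against 10972 and 17450 in basal knockout cells. In wildtype cells the same probe gave 53217 and 55506 with LPS, against 17289 and 22132 without. C3 was thus higher on both LPS arrays of each genotype, and it rose 2.51-fold in knockout cells (log2 1.33 ± 0.30, limma adjusted p = 0.027) and 2.78-fold in wildtype cells (log2 1.47 ± 0.15, limma adjusted p = 0.0026). The second C3 probe gave 10872 and 14931 in LPS knockout against 3878 and 5668 in basal knockout cells, and 20598 and 19895 in LPS wildtype against 5968 and 7759 in basal wildtype cells. Its log2 changes were 1.44 in knockout and 1.57 in wildtype cells, so both probes gave the same direction and a similar size. In knockout cells the call was lost without basal replicate 1 (log2 1.01) and without LPS replicate 2 (log2 1.04), where calls over all genes fell too.

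Cfp encodes properdin, which stabilises the same convertase that factor B belongs to. Its intensity was 36782 and 22081 in LPS knockout cells, against 58742 and 68858 in basal knockout cells. Wildtype cells had 48283 and 32479 with LPS, against 58459 and 66572 without. Both LPS arrays were lower in each genotype. Cfp fell in knockout cells (log2 -1.16 ± 0.27, limma adjusted p = 0.030), whereas its log2 change of -0.66 ± 0.22 in wildtype cells did not pass (limma adjusted p = 0.069). The difference between these changes is given with the genotype comparison. Over all 13 alternatives the wildtype log2 change ranged from -0.95 to -0.080, and from -0.95 to -0.37 when 1 array was left out. The size of the wildtype fall thus depends on the processing. The knockout call ended with the 75th percentile scaling (log2 -0.60, limma adjusted p = 0.11). It also ended when either basal array was left out, where calls over all genes fell too. Leaving out 1 array gave knockout log2 changes of -1.53 to -0.79.

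The receptors for C3a and C5a moved apart. C5ar1, a receptor that draws neutrophils and macrophages towards C5a, had 2999 and 891 in LPS knockout against 592 and 453 in basal knockout cells, and 2161 and 1002 in LPS wildtype against 444 and 372 in basal wildtype cells. The LPS replicates of C5ar1 differed more than 2-fold in each genotype, and replicate 1 was the higher one in both. C5ar1 rose in wildtype cells (log2 1.86 ± 0.38, limma adjusted p = 0.019), while the log2 change of 1.66 ± 0.60 in knockout cells did not pass (limma adjusted p = 0.091). C3ar1 had 914 and 773 in LPS knockout against 1891 and 1046 in basal knockout cells, and 545 and 699 in LPS wildtype against 1338 and 1071 in basal wildtype cells. No LPS value of C3ar1 reached a basal value of its genotype. C3ar1 fell in wildtype cells (log2 -0.96 ± 0.18, limma adjusted p = 0.014), and its log2 change in knockout cells was -0.74 ± 0.31 (limma adjusted p = 0.13). In wildtype cells the C3ar1 call was lost without basal replicate 1. The C5ar1 call was lost when either basal array was left out. Calls over all genes fell in these fits too. Leaving out 1 array gave wildtype log2 changes of -1.13 to -0.77 for C3ar1 and 1.30 to 2.40 for C5ar1. In knockout cells C5ar1 passed without LPS replicate 1 (log2 0.79, limma adjusted p = 0.045) and without LPS replicate 2 (log2 2.52, limma adjusted p = 0.0024), and C3ar1 passed without basal replicate 2 (log2 -1.17, limma adjusted p = 0.039).

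Among the Fc receptors, LPS cells had more signal for the activating receptor Fcgr4 and less for Fcgr3 and the inhibitory Fcgr2b. Fcgr4 encodes a receptor for IgG2 subclasses found on mouse monocytes, macrophages and neutrophils. Its intensity was 1444 and 1710 in LPS knockout against 388 and 271 in basal knockout cells, and 1343 and 2099 in LPS wildtype against 422 and 320 in basal wildtype cells. Every LPS value of Fcgr4 exceeded every basal value. Fcgr4 rose 4.84-fold in knockout cells (log2 2.28 ± 0.21, limma adjusted p = 0.0028) and 4.57-fold in wildtype cells (log2 2.19 ± 0.26, limma adjusted p = 0.0042). Its promoter was the only one of the 9 matched promoters to hold the interferon response letters printed above. The promoter of Fcgr1 was likewise the only one of the 9 with a STAT match, and Fcgr1 did not pass the LPS test. The part of such matches in the LPS changes was not tested.

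Fcgr3 encodes a low-affinity activating receptor. It had 4671 and 3387 in LPS knockout against 14937 and 13670 in basal knockout cells, and 3922 and 3314 in LPS wildtype against 14746 and 15155 in basal wildtype cells. All LPS values of Fcgr3 lay far below all basal values, and the fall was 3.59-fold in knockout cells (log2 -1.85 ± 0.19, limma adjusted p = 0.0034) and 4.15-fold in wildtype cells (log2 -2.05 ± 0.12, limma adjusted p = 0.00085). Fcgr2b, the inhibitory receptor, had 9568 and 5322 in LPS knockout against 30014 and 33564 in basal knockout cells, and 11566 and 6220 in LPS wildtype against 32766 and 34544 in basal wildtype cells. The groups of Fcgr2b did not overlap either. Its fall was 4.45-fold in knockout cells (log2 -2.15 ± 0.30, limma adjusted p = 0.0075) and 3.97-fold in wildtype cells (log2 -1.99 ± 0.31, limma adjusted p = 0.0081). The Fcgr2b call was lost when either basal array was left out in knockout cells and without basal replicate 2 in wildtype cells. Calls over all genes fell in these fits too. Leaving out 1 array gave log2 changes of -2.5 to -1.7 in knockout and -2.4 to -1.5 in wildtype cells. Fcgr2b and Fcgr3 encode proteins with very similar outer parts, and whether their probes tell the 2 transcripts apart was not tested.

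Fcgr1, the high-affinity IgG receptor, and the Fcer1g chain did not pass the test in either genotype. Fcgr1 had 7536 and 8734 in LPS knockout against 7710 and 6770 in basal knockout cells, and 9704 and 13016 in LPS wildtype against 8815 and 9032 in basal wildtype cells. Its LPS and basal values overlapped in knockout cells. The log2 change of Fcgr1 was 0.17 in knockout cells (95% interval -0.19 to 0.52) and 0.33 in wildtype cells (-0.10 to 0.76). Fcer1g had 125280 and 140200 in LPS knockout against 104130 and 106470 in basal knockout cells, and 104940 and 137020 in LPS wildtype against 105690 and 99682 in basal wildtype cells. Its LPS and basal values overlapped in wildtype cells. The log2 change of Fcer1g was 0.33 in knockout cells (95% interval 0.04 to 0.62, limma adjusted p = 0.073) and 0.22 in wildtype cells (-0.19 to 0.63, limma adjusted p = 0.32). With the 75th percentile scaling both genes passed the test in both genotypes, Fcgr1 at log2 0.50 in knockout and 0.68 in wildtype cells and Fcer1g at 0.86 in knockout and 0.77 in wildtype cells.

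**Figure D2:**
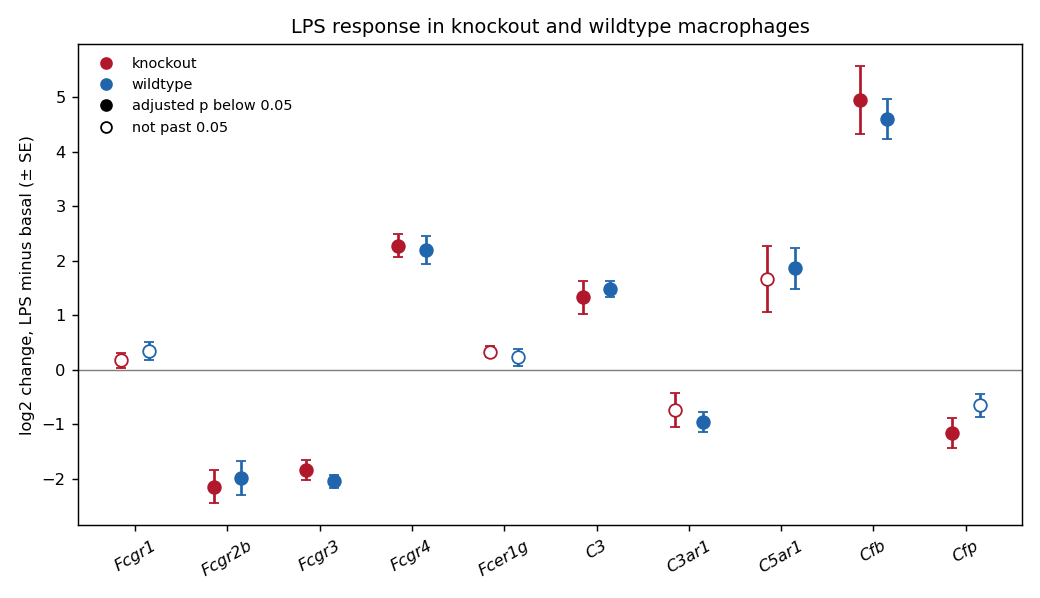
Log2 change of normalised intensity, LPS minus basal, for each gene with its limma standard error; knockout cells are left of wildtype cells, and filled points passed an adjusted p of 0.05. Cfb stands at 4.94 in knockout and 4.59 in wildtype cells, Fcgr4 near 2.2 in both, and Fcgr2b and Fcgr3 near -2 in both.

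The second question was whether Cdk5r1 knockout cells differed from wildtype cells under either condition. Averaged over both conditions, Cfb, C3, Fcgr1 and Cfp were lower in knockout cells and none of the 10 genes was higher. Under LPS C3, Fcgr1 and Cfp were lower, and in basal cells only Cfb was. Over all genes 18.1% passed for the mean of both conditions (9.91% higher, 8.21% lower), 12.4% under LPS (7.15% higher, 5.23% lower) and 4.86% in basal cells (3.36% higher, 1.49% lower), by limma on log2 ratios of all 4 arrays. Against that background 4 of the 10 genes were lower for the mean, 3 under LPS and 1 in basal cells. At an unadjusted p under 0.05 the members numbered 7 for the mean, 6 under LPS and 4 in basal cells, beside 34.2%, 29.1% and 19.8% of all genes. Their median log2 ratio was -0.15 for the mean, -0.17 under LPS and -0.07 in basal cells, beside all-gene medians of 0.0008, -0.0008 and 0.0024.

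These calls depended on the loess normalisation. When each array was centred on its median instead, all genes shifted towards the knockout by 0.08 for the mean, 0.07 under LPS and 0.09 in basal cells, and all-gene calls were 7256 higher and 1677 lower for the mean, 4623 and 860 under LPS, and 3805 and 646 in basal cells. With loess they were 2336 higher and 1935 lower for the mean, 1686 and 1232 under LPS, and 793 and 352 in basal cells. Of the 10 genes, 5 were then higher and 1 lower for the mean, 1 higher and 0 lower under LPS, and 3 higher and 1 lower in basal cells. The lower gene was Cfb in both. The higher genes were Fcgr3, Fcer1g, C3ar1, C5ar1 and Cfp for the mean, Fcer1g under LPS, and Fcgr2b, Fcer1g and Cfp in basal cells.

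Cfb had the largest genotype difference of the 10 genes. From the intensities above, its log2 ratio of knockout over wildtype was -1.24 and -0.61 under LPS and -1.79 and -0.77 in basal cells. The knockout value was lower on all 4 arrays, and replicate 1 had the larger difference in both conditions. The mean over both conditions was log2 -1.10 ± 0.17, a 2.15-fold lower level in knockout cells (limma adjusted p = 0.0082). In basal cells Cfb was lower at log2 -1.28 ± 0.24 (limma adjusted p = 0.036), and under LPS its log2 ratio of -0.92 ± 0.24 did not pass (limma adjusted p = 0.056). The basal call ended under 6 of 12 alternatives, with limma adjusted p of 0.051 with an offset of 16, 0.082 without either LPS array, 0.12 without basal replicate 1 (log2 -0.77), and 0.14 with processed signals and with the authors' deposited table (log2 -1.38 in each). The mean call ended under 3 of 12. These were processed signals (limma adjusted p = 0.055), the authors' deposited table (limma adjusted p = 0.054) and leaving out LPS replicate 1. On the LPS arrays Cfb passed under 4 of 12 alternatives. Among them were leaving out either basal array and no filter on dim probes (limma adjusted p = 0.047).

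C3 gave log2 ratios of -0.89 and -0.40 under LPS and -0.66 and -0.34 in basal cells. Its second probe gave -0.92 and -0.41 under LPS and -0.62 and -0.45 in basal cells. Both probes were lower in knockout cells on all 4 arrays, and the probe used for the gene, averaged over 9 spots of an array, varied among those spots with an SD of 0.014 to 0.028. C3 was lower in knockout cells under LPS (log2 -0.65 ± 0.13, limma adjusted p = 0.026) and for the mean (log2 -0.57 ± 0.093, limma adjusted p = 0.0094), while the basal value of -0.50 ± 0.13 did not pass (limma adjusted p = 0.0998). The LPS call ended without LPS replicate 1 (log2 -0.40, adjusted p = 0.23), without LPS replicate 2 (log2 -0.89, adjusted p = 0.062), with median centring (log2 -0.16, adjusted p = 0.34), with processed signals (adjusted p = 0.096) and with the authors' deposited table (adjusted p = 0.096), each with limma. The mean call ended under 4 of 12 alternatives, with limma adjusted p of 0.13 with median centring (log2 -0.17), 0.057 with processed signals and with the authors' deposited table, and 0.051 without LPS replicate 1.

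Fcgr1 gave log2 ratios of -0.36 and -0.58 under LPS and -0.19 and -0.42 in basal cells. Its knockout value was below the wildtype value on all 4 arrays. Fcgr1 was lower under LPS (log2 -0.47 ± 0.089, limma adjusted p = 0.021) and for the mean (log2 -0.39 ± 0.063, limma adjusted p = 0.0094), and its basal log2 ratio was -0.30 ± 0.089 (limma adjusted p = 0.13). The LPS call ended without LPS replicate 1 (adjusted p = 0.097), without LPS replicate 2 (adjusted p = 0.19), with median centring (log2 -0.20, adjusted p = 0.24), with processed signals (adjusted p = 0.099) and with the authors' deposited table (adjusted p = 0.10), each with limma. The mean call ended under 4 of 12 alternatives, with limma adjusted p of 0.25 with median centring (log2 -0.12), 0.066 with processed signals, 0.068 with the authors' deposited table and 0.064 without LPS replicate 2.

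Cfp gave log2 ratios of -0.39 and -0.56 under LPS and 0.01 and 0.05 in basal cells. The knockout value was lower on both LPS arrays and nearly equal to the wildtype value on both basal arrays. Cfp was lower in knockout cells under LPS at log2 -0.47 ± 0.074 (limma adjusted p = 0.011), and its basal log2 ratio was 0.03 ± 0.074 (95% interval -0.15 to 0.20). With median centring the log2 ratio under LPS was -0.015 (limma adjusted p = 0.94), and leaving out LPS replicate 1 (log2 -0.56, limma adjusted p = 0.065) or LPS replicate 2 (log2 -0.39, limma adjusted p = 0.12) also ended the call. For the mean of both conditions the log2 ratio was -0.22 ± 0.052 (limma adjusted p = 0.031). Median centring turned it to 0.25, and leaving out any 1 array (limma adjusted p from 0.071 to 0.13) or an offset of 16 (limma adjusted p = 0.054) ended that call.

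The other 6 genes did not pass in any genotype comparison after loess. Fcgr2b came nearest, with log2 ratios of -0.27 and -0.23 under LPS and -0.13 and -0.04 in basal cells, lower on all 4 arrays. Its log2 mean ratio was -0.17 (95% interval -0.28 to -0.05, limma adjusted p = 0.059), and median centring turned it to 0.17. Fcgr3 gave 0.25 and 0.03 under LPS and 0.02 and -0.15 in basal cells, with a log2 mean of 0.04 (-0.11 to 0.18), or 0.29 with median centring (limma adjusted p = 0.020). The direction of Fcgr3 differed between arrays. Fcgr4 gave 0.10 and -0.30 under LPS and -0.12 and -0.24 in basal cells, with a log2 mean of -0.14 (-0.31 to 0.04). Fcer1g gave 0.26 and 0.03 under LPS and -0.02 and 0.10 in basal cells, with a log2 mean of 0.09 (-0.05 to 0.23). Median centring gave Fcer1g log2 ratios of 0.68 for the mean (limma adjusted p = 0.00085), 0.78 under LPS (limma adjusted p = 0.0035) and 0.58 in basal cells (limma adjusted p = 0.017), so its genotype difference depends on the normalisation. Neither Fcgr4 nor Fcer1g kept 1 direction over the 4 arrays. C3ar1 gave 0.75 and 0.15 under LPS and 0.50 and -0.03 in basal cells, with a log2 mean of 0.34 (0.05 to 0.63, limma adjusted p = 0.10). C5ar1 gave 0.47 and -0.17 under LPS and 0.42 and 0.28 in basal cells, with a log2 mean of 0.25 (0.01 to 0.50, limma adjusted p = 0.14). For both anaphylatoxin receptors replicate 1 gave the higher ratio in each condition. The mean of C3ar1 passed under 3 of 12 alternatives, among them median centring (limma adjusted p = 0.019) and leaving out basal replicate 2. That of C5ar1 passed under 2 of 12, median centring (limma adjusted p = 0.029) and leaving out LPS replicate 2.

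**Figure D3:**
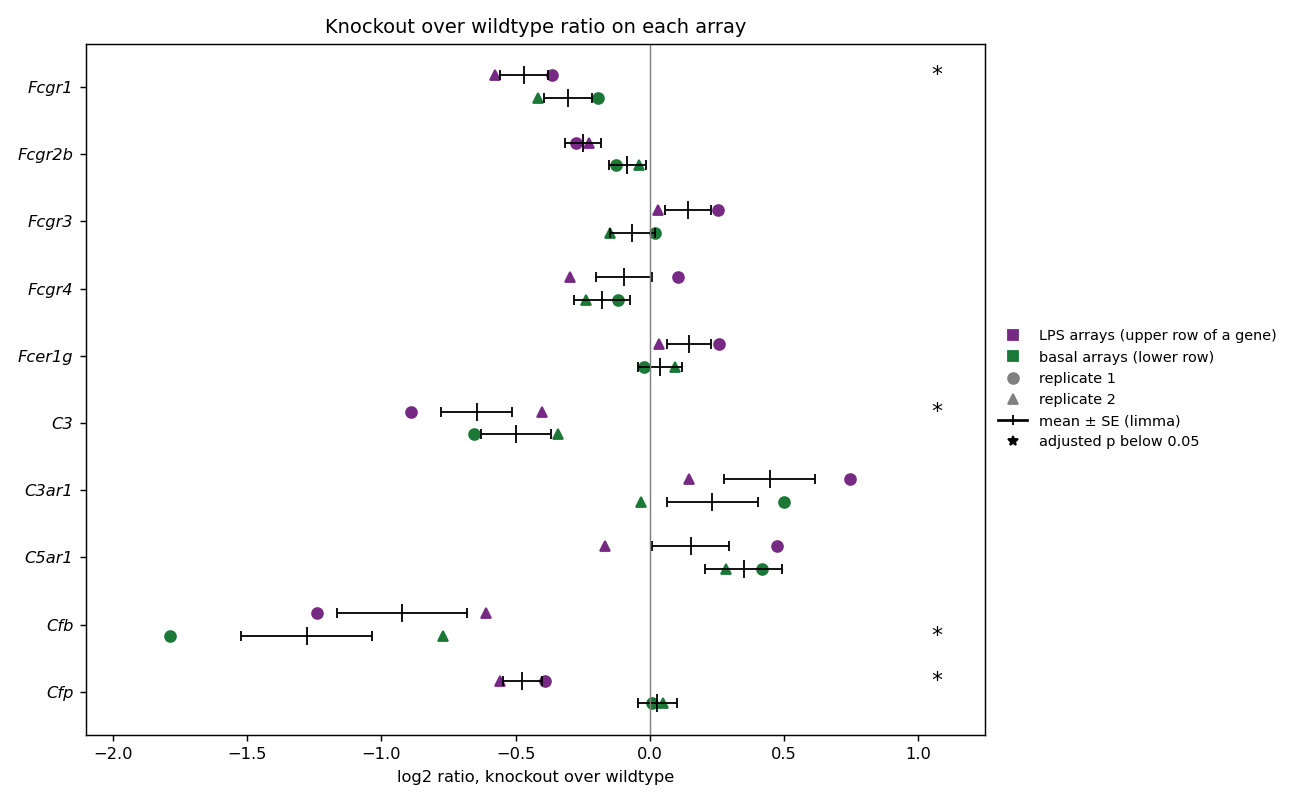
Log2 ratio of knockout over wildtype on each array (points), with the mean and its limma standard error; LPS arrays are in the upper row and basal arrays in the lower one, and an asterisk marks an adjusted p below 0.05. Cfb, C3 and Fcgr1 lie below 0 on all 4 arrays, and Cfp lies below 0 on the LPS arrays only.

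Other cell types' markers moved with the genotype. The summed intensity of 13 neutrophil markers was 149780 to 157290 in knockout and 330770 to 365230 in wildtype cells under LPS, and 124970 to 144740 in knockout and 178090 to 223620 in wildtype cells without it. Of these 13 genes 7 were lower in knockout cells under LPS and 6 in basal cells, and none was higher. S100a8 was lower at log2 -1.64 under LPS and -1.17 in basal cells, and 11 of the 13 were above background on all arrays. The 6 eosinophil markers summed to 7078 to 7121 in knockout and 14854 to 20232 in wildtype cells under LPS, and 3 of them were lower in each condition. The sum of 9 dendritic cell markers went the other way, with 694240 to 712220 in knockout and 494790 to 518870 in wildtype cells under LPS. Of these markers 3 were higher in knockout cells under LPS (Cd74, H2-Ab1 and Dpp4) and 1 in basal cells (H2-Ab1). The other 6 did not pass under LPS, among them Clec9a at log2 -0.34. Of 7 mast cell and basophil markers 2 were higher in each condition, of 4 stromal markers 1 was lower in each, and no B cell marker (5 tested) or T and NK cell marker (7 tested) passed. In the response-to-LPS list 3 of 6 genes, Il6, Tnf and Il1b, were lower in knockout cells under LPS and none was in basal cells. The 9 macrophage markers summed to 93459 to 130300 in knockout and 124890 to 144270 in wildtype cells under LPS, with 1 higher and 4 lower, and in basal cells to 231810 to 268110 in knockout and 241900 to 243620 in wildtype cells, with 2 lower. The part of these shifts in the lower Cfb, C3, Fcgr1 and Cfp of knockout cells was not tested.

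The third question was whether the genotype difference itself changed with LPS. The dyes are the same on all arrays, so a constant dye effect of a probe cancels here, while one that depends on signal level need not and was not tested. None of the 10 genes passed, and 0.378% of all genes did. At an unadjusted p under 0.05 there was 1 gene, Cfp, beside 10.4% of all genes. The log2 ratio of Cfp differed between LPS and basal arrays by -0.50 ± 0.10 (95% interval -0.75 to -0.25, limma adjusted p = 0.15). For Cfb the same difference was 0.35 with a wide interval of -0.47 to 1.18, and for C3 it was -0.15 (-0.59 to 0.30). Fcgr1 gave -0.17 (-0.47 to 0.14) and Fcgr4 0.08 (-0.27 to 0.44). C5ar1, C3ar1 and Cfp passed the LPS test in 1 genotype each, and none of their differences between genotypes passed: C3ar1 gave 0.21 (-0.36 to 0.79) and C5ar1 -0.20 (-0.69 to 0.29).

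The rest of both systems was read from 7 lists of pathway genes. Their counts stand beside the shares of all genes tested. With LPS 19.0% rose and 21.9% fell in knockout cells, and 18.2% rose and 22.7% fell in wildtype cells. Between genotypes 7.15% were higher and 5.23% lower in knockout cells under LPS, and 3.36% higher and 1.49% lower in basal cells. No list was tested as a set, so the counts describe single genes. In the classical and lectin pathway list 12 of 16 genes were tested. Of these, 2 rose and 1 fell with LPS in knockout cells, and 4 rose and 3 fell in wildtype cells. The 3 that fell in wildtype cells encode the chains of C1q, which starts the classical pathway: C1qa (log2 -0.97 in knockout and -1.52 in wildtype cells), C1qc (log2 -0.92 in knockout and -1.20 in wildtype cells) and C1qb (log2 -0.39 in knockout and -0.92 in wildtype cells). The knockout values did not pass, and none of the 12 genes passed the test of a difference between genotypes. Ptx3, a secreted pattern recognition protein that binds C1q, rose by log2 3.03 in knockout and 3.02 in wildtype cells, and C2 and C4b are the parts of the classical C3 convertase. C2 had log2 changes of 1.498 in knockout cells (limma adjusted p = 0.060) and 1.58 in wildtype cells, and C4b of 0.85 in knockout cells (limma adjusted p = 0.060) and 1.02 in wildtype cells, and both passed in wildtype cells. Between genotypes, C1qa was higher in knockout cells under LPS (log2 0.72 ± 0.17, limma adjusted p = 0.042) and the ficolin Fcna lower (log2 -0.34), and in basal cells 1 gene was higher, Masp2 (log2 0.72, other probe -0.0052), which was above background on 1 of 2 basal wildtype arrays.

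In the list of the alternative pathway and terminal components 5 of 8 genes were tested, and none differed between genotypes. With LPS 2 fell in knockout cells, and 1 rose and 2 fell in wildtype cells. C8g, a chain of the membrane attack complex, fell on its brighter probe, at log2 -0.97 in knockout and -1.02 in wildtype cells, but its other probe gave 0.59 and 0.54. C8a was not well above background in LPS cells of either genotype, and Hc, which encodes C5, was not in basal knockout cells.

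Complement regulators gave 7 of 12 genes tested, of which 2 rose and 1 fell with LPS in each genotype. Serping1, the C1 inhibitor, rose by log2 3.45 in knockout and 2.80 in wildtype cells, and it was higher in knockout cells under LPS (log2 0.76 ± 0.082, limma adjusted p = 0.0029). Clu, which blocks the terminal complex, rose by log2 1.51 in knockout and 1.82 in wildtype cells, and it was lower in knockout cells under LPS (log2 -0.79 ± 0.15, limma adjusted p = 0.022). Cd55, which breaks up C3 convertases, was also lower under LPS (log2 -0.56, limma adjusted p = 0.0047), though above background on only 1 of 2 LPS knockout arrays. C1qbp, which binds the heads of C1q, was lower too (log2 -0.46), so 1 regulator was higher and 3 were lower under LPS, and none passed in basal cells.

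All 9 other complement receptor genes were tested, and 6 fell and 0 rose with LPS in each genotype, with a median log2 change of -0.73 in knockout and -0.53 in wildtype cells. Cd93 fell (log2 -2.80 in knockout and -2.59 in wildtype cells). C5ar2, a further receptor for C5a, fell (log2 -0.88 in knockout and -1.11 in wildtype cells), opposite to the value of C5ar1. The integrin chains of complement receptor types 3 and 4 fell as well: Itgb2 at log2 -0.91 in knockout and -0.85 in wildtype cells, and Itgax at log2 -0.97 in knockout and -0.53 in wildtype cells. Under LPS Itgax was lower in knockout cells (log2 -0.59 ± 0.071, limma adjusted p = 0.0043), Calr was lower (log2 -0.35), and C5ar2 was higher on its brighter probe (log2 0.61), with -0.17 on the other. In basal cells Lrp1, a receptor that takes up protease and complement complexes, was lower (log2 -0.52), and C5ar2 was higher (log2 0.38, other probe 0.18).

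Of 13 other Fc receptor genes 11 were tested. With LPS 3 rose and 1 fell in knockout cells, and 3 rose and 3 fell in wildtype cells. Trim21, an antibody receptor of the cytosol, rose by log2 3.87 in knockout and 3.77 in wildtype cells, and Fcmr, the IgM receptor, by 3.59 in knockout and 3.0 in wildtype cells. Fcgrt, the receptor that recycles IgG, had log2 changes of -1.84 in knockout cells (limma adjusted p = 0.075) and -2.0 in wildtype cells, where it passed. Under LPS Fcmr (log2 0.80 ± 0.11, limma adjusted p = 0.0069) and Fcgrt (log2 0.48 ± 0.10, limma adjusted p = 0.030) were higher in knockout cells, and in basal cells Fcrla (log2 -0.95) and Fcrlb (log2 -0.44) were lower.

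In the list of signalling below the activating receptors all genes were tested, 20 of 20. The name of a list does not say whether each of its genes promotes or dampens signals. With LPS 4 rose and 5 fell in knockout cells, and 6 rose and 5 fell in wildtype cells. The adaptor Dok1 rose by log2 1.87 in knockout and 2.01 in wildtype cells, and the adaptor Lat2 fell (log2 -2.41 in knockout and -2.35 in wildtype cells). Under LPS the kinases Fgr (log2 -0.63 ± 0.068, limma adjusted p = 0.0029) and Btk (log2 -0.60, other probe -0.17) were lower in knockout cells and Pik3r1, a regulatory subunit of phosphoinositide kinase, was higher (log2 0.50). Of the 7 genes in the list of signalling below the inhibitory receptor 4 fell with LPS in each genotype, 0 rose in knockout cells and 1 rose in wildtype cells. Inpp5d, which encodes SHIP, the phosphatase that Fcgr2b recruits, fell (log2 -4.38 ± 0.26 in knockout and -4.00 ± 0.29 in wildtype cells) (limma adjusted p = 0.0011 and 0.0012). Dok2, an adaptor that dampens kinase signals, fell (log2 -4.24 in knockout and -3.81 in wildtype cells). Between genotypes under LPS, Inppl1 (log2 -0.76), Ptpn6 (log2 -0.41) and Inpp5d (log2 -0.33) were lower in knockout cells and Sh2d1b1 was higher (log2 0.91), while none passed in basal cells.

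**Figure D4:**
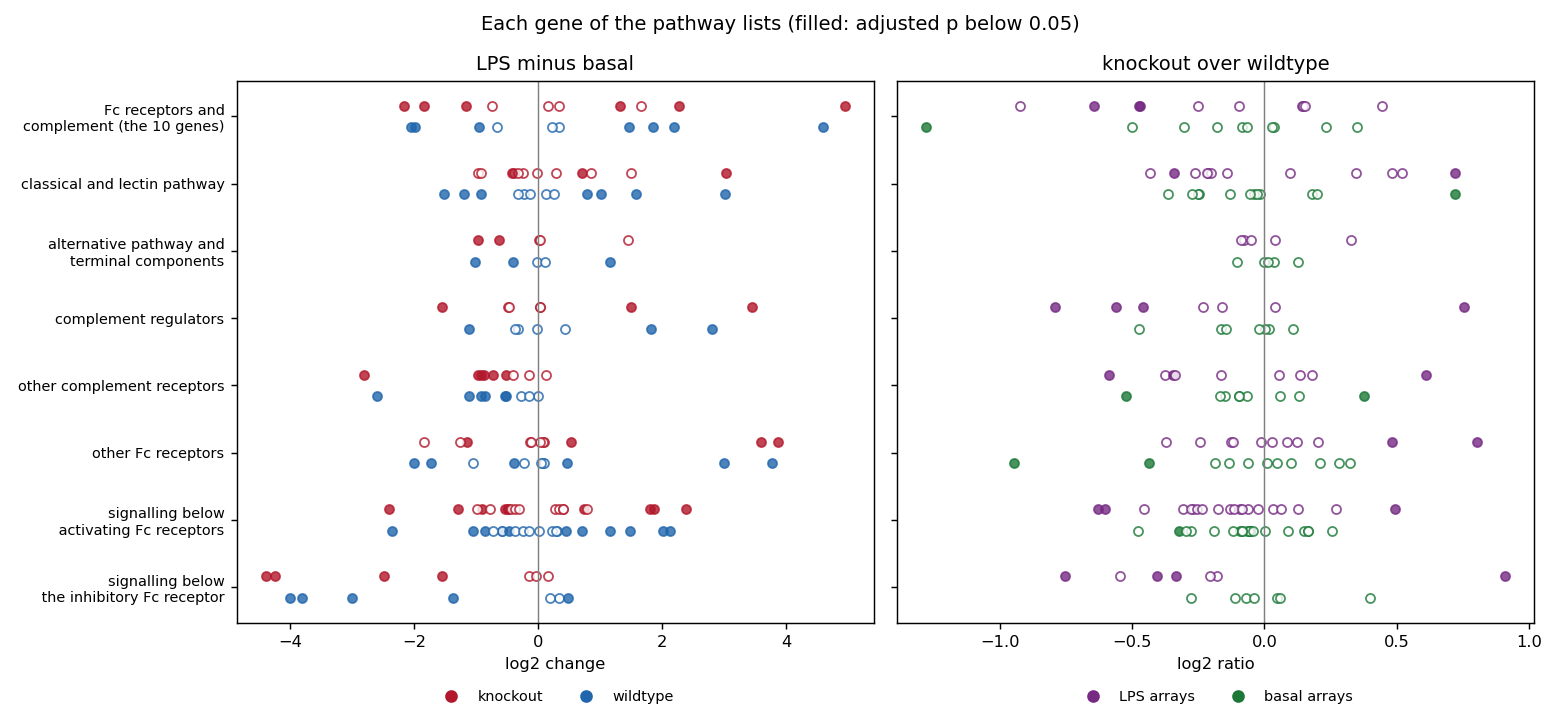
Log2 changes of every tested gene of the 7 pathway lists and of the 10 genes. The left panel shows LPS minus basal, with knockout cells above wildtype cells; the right panel shows knockout over wildtype, with LPS arrays above basal arrays. Filled points passed an adjusted p of 0.05. In the list below the inhibitory Fc receptor 4 of 7 genes fell with LPS in each genotype, down to -4.38 in knockout and -4.00 in wildtype cells. Of all genes tested, 21.9% fell in knockout and 22.7% in wildtype cells.

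The pattern of each gene over the 8 channel values, centred on its own mean, was set against those of all named genes by the root mean square difference in log2. Fcgr2b lay nearest to Tspan4 (0.043) and Gcsh (0.076), and Fcer1g to Ostf1 (0.043) and Ppm1h (0.046). Fcgr1 lay nearest to Prg4 (0.078) and Esd (0.093), Fcgr3 to Fes (0.087) and Fam189b (0.10), Fcgr4 to Slc7a8 (0.11) and Parp8 (0.12), and Cfp to Hmgn2 (0.088) and Etfb (0.092). These differences were not scaled to a gene's own SD over the 8 values, which was 0.196 for Fcer1g and 2.68 for Cfb. The other 4 genes had more distant neighbours on this unscaled measure. C3 lay nearest to Mtpn (0.16) and Plpp1 (0.17), C3ar1 to Acss1 (0.14) and Rell1 (0.16), C5ar1 to Klf8 (0.247) and Rhob (0.248), and Cfb to Fpr1 (0.47) and Lcn2 (0.51). Among the 10 genes themselves, which form 45 pairs with a median difference of 1.23, the closest were Fcgr2b and Fcgr3 (0.25) and Fcgr1 and Fcer1g (0.26). Fcgr2b and Fcgr3 differed by much less than their own SDs of 1.16 and 1.053. Fcgr1 and Fcer1g had SDs of only 0.285 and 0.196, about the size of their difference. The closeness of Fcgr1 and Fcer1g thus says little beyond small variation in both.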

How the data were processed

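RNA of Cdk5r1 knockout (Cy5) and wildtype (Cy3) macrophages was hybridised together on 4 arrays with 2 colours, 2 with LPS and 2 basal. The deposited files are scanner output from Agilent's Feature Extraction software (11.5.1.1 per the file headers and 9.3.2.1 per the submitters' processing notes) and hold median foreground and background intensity per spot on a linear scale. The authors' deposited value table holds log2 ratios: it matched the log2 of knockout over wildtype processed signals of the same array after a constant of -0.002 to 0.0051 per array, within 0.001 for 100% of probes, which settles scale and direction, and its column medians were 0.016, 0.0344, 0.0292 and 0.0306. The ratio of the 2 processed signals was made by the scanner software, per the file headers, and was used as an alternative.

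Background was corrected with normexp (offset 50) and arrays were normalised by loess within arrays and Aquantile between arrays in limma 3.58.1 (R 4.3.3). Of 44397 spots 1377 were controls and were left out, and 63 probes were lost to outlier flags. Spots of a probe were averaged. Probes that cleared background well in 1 or both channels on 2 or more of the 4 arrays were kept, which left 28637 of 39429 probes, and the brightest kept probe stood for its gene (23571 genes tested, 15987 with a symbol). Probes were named through their RefSeq accession and the scanner files' names. Levels are given as normalised intensity, 2 to the power of the log2 value. Ratios were fitted over all 4 arrays with 1 mean per condition, and LPS against basal within a channel, with lmFit and eBayes, two-sided, adjusted by Benjamini-Hochberg; errors are limma standard errors. The number of arrays, 2 a condition, limits the precision. The fit was tested on simulated data.

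The genes named are the 10 members, and for each pathway list and comparison up to 3 genes past the threshold in each direction; markers and Cdk5r1 serve as checks, and the 2 named genes of smallest difference are given as most alike. One gene of the lists is not reported here by name. The members and lists were chosen with earlier results of these data known. All 4 arrays lay on 1 slide. Alternatives were another offset, processed signals, median centring, 75th percentile scaling, quantile scaling of all channels, the mean over a gene's probes, other filters on dim probes, a replicate block, a joint fit of both channels, the authors' table, and leaving out each array.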

Additional observations from a re-analysis of the deposited data

How the results depend on the processing

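Of the LPS calls, those of Cfb, Fcgr3 and Fcgr4 kept their direction and their side of the threshold in both genotypes under all 13 alternatives run, and that of C3 did so in wildtype cells; no LPS result changed direction. The genotype calls were less stable. In basal cells 1 of the 10 genes was called, lower; the called genes numbered 0 with processed signals, with an offset of 16 and with the authors' deposited table, 2 with the replicate block, both lower, and 4 with median centring, 3 higher and 1 lower. Under LPS 3 were called, all lower; they numbered 1 with processed signals and with the authors' deposited table, lower in both, 1 with median centring, higher, and 5 with the replicate block, 1 higher (C3ar1) and 4 lower. For the mean 4 were called, all lower, and 1 with processed signals and with the authors' deposited table, again lower. Leaving out 1 array gave 0 to 1 called genes in basal cells, 0 to 4 under LPS, 1 to 4 for the mean, 0 for the difference between conditions, and 3 to 7 in knockout and 5 to 9 in wildtype cells for LPS against basal. Calls over all genes fell too when an LPS array was left out: under LPS they were 366 higher and 118 lower without replicate 1 and 288 and 104 without replicate 2, against 1686 and 1232 with all arrays, and for the mean 1094 and 584 without replicate 1 and 1108 and 686 without replicate 2, against 2336 and 1935. Calls over all genes for LPS against basal fell in both genotypes whichever array was left out. Those for the genotype under LPS rose when a basal array was left out. Fits without an array leave 1 sample in a condition, and the part of this in the members' lost calls was not tested. The replicate block left 4 for the mean, 0 for the difference between conditions, and 7 in knockout and 7 in wildtype cells for LPS. The labels do not say what a shared number means. Deviations of same-numbered samples correlated at -0.161 for ratios, -0.0821 in knockout and -0.190 in wildtype channels. With 2 arrays a condition these values cannot decide whether same-numbered samples share more than a number.

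Log2 ratios that changed sign were as follows. Median centring gave 0.32 for Fcgr2b and 0.25 for Fcgr3 in basal cells, 0.013 for Fcgr2b and 0.048 for Fcgr4 under LPS, 0.17 for Fcgr2b and 0.25 for Cfp for the mean, and 0.015 for the C3 difference between conditions. Processed signals gave -0.094 for Fcer1g and -0.12 for Cfp in basal cells, -0.053 for Fcer1g under LPS and -0.074 for its mean, where the authors' deposited table gave -0.093, -0.12, -0.050 and -0.071. Leaving out 1 array gave ranges in basal cells of -0.15 to 0.019 for Fcgr3, -0.021 to 0.095 for Fcer1g and -0.034 to 0.50 for C3ar1. Under LPS it gave -0.30 to 0.10 for Fcgr4 and -0.17 to 0.47 for C5ar1, and for the mean -0.017 to 0.093 for Fcgr3. For the difference between conditions it gave -0.12 to 0.28 for Fcgr4, -0.0038 to 0.22 for Fcer1g, -0.39 to 0.098 for C3, -0.086 to 0.51 for C3ar1, -0.52 to 0.12 for C5ar1 and -0.15 to 0.86 for Cfb. The cause was not tested. A slide block was not run because all arrays lay on 1 slide.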

Other observations

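On the second LPS array the genes lay farther from the basal mean than on the first for 9 of 10 genes in knockout cells, all but C5ar1, and for 8 of 10 in wildtype cells, all but C3ar1 and C5ar1. Over all 23571 genes the second LPS array was the farther one for 52.9% in knockout and 52.3% in wildtype cells. Both channels of an array come from 1 hybridisation.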
